A study of Mus musculus with 6 samples.

Results

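The acetylcholine receptor of skeletal muscle and the agrin-MuSK pathway that gathers it under the nerve ending were followed through 10 genes: the receptor subunit genes Chrna1, Chrnb1, Chrnd, Chrng and Chrne, and Agrn, Lrp4, Musk, Dok7 and Rapsn. Members were taken as every non-control probe whose RefSeq accession belonged to 1 of these genes. This gave 12 probes among 39429 on the array, and 10 genes among 32451 entries. Chrna1 and Agrn had 2 probes each and the other genes 1 each. The RNA was that of C2C12, a standard line of mouse myoblasts that can fuse into myotubes, cultured with 10% serum and at 70 to 80% confluence when the siRNA ("20 um" in the labels) was added. One group received a negative control siRNA (siRNA-NC, labelled control). The other received siRNA directed at Meg3, a long non-coding RNA (siRNA-MEG3, labelled lncRNA-MEG3 knockdown). Each group had 3 single-colour Agilent arrays. The labels name no nerve cells in these cultures, so the junction genes were measured in muscle cells without a motor neuron named beside them.

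The muscle receptor is a pentamer that opens when acetylcholine binds. Its fetal form contains the γ subunit (Chrng) beside α, β and δ, and its adult form contains ε (Chrne) in that place. Agrin released by the nerve binds LRP4, which activates the kinase MuSK. With DOK7, its cytoplasmic activator, MuSK signals to rapsyn, which clusters the receptors. Subunit genes are textbook targets of the myogenic factors that bind E-boxes (CANNTG, with CAGCTG as one form of it), and the ε gene of the N-box (CCGGAA), bound by ETS factors in the nuclei under the synapse.

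The promoters of the subunit genes are shown because the genes differ in the E-boxes and N-boxes found there. Each line gives the 250 bases before the gene's start from RefSeq, build GRCm38.p6, 5′ to 3′ on the gene's strand, with every CANNTG and CCGGAA in capitals. Both motifs were searched on both strands, and each CAGCTG is also counted as a CANNTG.
Chrna1, chr2:73580339-73580588, minus strand: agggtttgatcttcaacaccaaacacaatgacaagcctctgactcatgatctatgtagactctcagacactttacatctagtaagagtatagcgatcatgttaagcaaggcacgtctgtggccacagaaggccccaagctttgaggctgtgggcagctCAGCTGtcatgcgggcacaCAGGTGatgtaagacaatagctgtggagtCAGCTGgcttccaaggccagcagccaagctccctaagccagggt
Chrnb1, chr11:69795938-69796187, minus strand: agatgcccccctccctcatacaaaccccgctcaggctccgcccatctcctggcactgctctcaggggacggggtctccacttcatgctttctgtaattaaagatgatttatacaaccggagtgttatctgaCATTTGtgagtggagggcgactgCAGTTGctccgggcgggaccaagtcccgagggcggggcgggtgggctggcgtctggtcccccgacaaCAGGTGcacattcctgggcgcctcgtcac
Chrng, chr1:87205561-87205810, plus strand: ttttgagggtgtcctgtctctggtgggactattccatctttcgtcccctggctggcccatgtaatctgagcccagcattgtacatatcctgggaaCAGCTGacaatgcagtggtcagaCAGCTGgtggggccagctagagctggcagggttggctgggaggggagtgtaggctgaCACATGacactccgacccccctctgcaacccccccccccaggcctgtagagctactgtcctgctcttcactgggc
Chrne, chr11:70619195-70619444, minus strand: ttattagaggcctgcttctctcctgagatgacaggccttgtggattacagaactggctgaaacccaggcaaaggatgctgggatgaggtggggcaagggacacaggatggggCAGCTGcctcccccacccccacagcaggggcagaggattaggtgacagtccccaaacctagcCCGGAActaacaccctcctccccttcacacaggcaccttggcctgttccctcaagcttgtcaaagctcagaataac

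The Chrna1 window held 3 CANNTG, of which 2 were CAGCTG, starting 92 and 44 bases before the gene's start. Chrng also held 3, with its CAGCTG copies at 155 and 132 bases. Chrnb1 held 3 CANNTG and 0 CAGCTG. Chrne held a single CAGCTG at 138 bases and a single CCGGAA at 76 bases, and was the only member window with CCGGAA. Of 32817 RefSeq windows of the same length, 13.0% held CAGCTG, 66.2% held CANNTG and 12.02% held CCGGAA. The Musk window held 3 CANNTG with 1 CAGCTG, while the windows of Dok7 and of Agrn, 2 for each gene, held 1 and 0 CANNTG and no CAGCTG. In all, 7 of the 10 members had a window, 9 windows in total; Chrnd, Rapsn and Lrp4 were not matched. A match is a stretch of letters and was not tested for binding here.

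The arrays were first checked as a set. Per array, 62.8 to 75.2% of spots were well above background, the 75th percentile of the processed signal lay between 1168 and 2266, and 0 spots were saturated. siRNA-MEG3 arrays 1 and 3 held the same slide position and scattered alike spot by spot over 227 probes printed repeatedly (r = 0.98; -0.19 to 0.52 for the other array pairs). siRNA-NC arrays 1 and 3 differed by about the noise between spots (variance ratio 1.04, against 159.0 for siRNA-NC arrays 1 and 2). Each pair entered the tests as 1 sample, so that every group had 2. For siRNA-MEG3 arrays 1 and 2 the ratio was low too (1.33), and p-values therefore measure a spread between samples that may be technical. The siRNA-NC arrays were read in 1 scan and the siRNA-MEG3 arrays in 2 others, so that scan and group cannot be told apart. Of 3 Meg3 probes, 1 was well above background on 1 siRNA-NC array and the others on no array, so the knockdown itself could not be checked. Myotube markers (Myog, Myh3, Ckm, Mymk, Tnnt1, Actc1) summed to 1.19 to 1.75 times the array's 75th percentile with siRNA-NC and 28.3 to 29.0 on the 2 siRNA-MEG3 arrays where all 6 had a usable spot (Actc1 lacked one on array 1), and 4 of 6 were called higher. The myoblast markers (Myod1, Myf5, Des, Cdh15, Itga7, Pax7) summed to 12.2 to 12.8 and 22.1 to 23.0. Itga7 made up most of that sum (1.44 to 1.77 and 3.39 to 3.61 without it), 3 of 6 fold changes were positive and 3 negative, and 0 were called. Marker sums of neurons (3.33 to 3.50 and 3.19 to 3.55) and endothelial cells (0.893 to 0.951 and 0.942 to 1.32) overlapped between the groups. Of the 6 neuronal log2 fold changes, 3 were positive and 3 negative. Tubb3 (1.96) was called higher, while Snap25 (-1.65) and Chat (-2.24) were lower on every siRNA-MEG3 array and not called. On those arrays Chat lay too low to be well above background. It was kept only for its signal above background with siRNA-NC, which favours a negative value. Without Syp, its largest term, the neuronal sum was 0.841 to 1.18 and 0.694 to 0.812. Those of Schwann cells were 0.289 to 0.423 and 0.469 to 0.514. The leukocyte sum was 1.18 to 1.76 and 0.654 to 1.12, and without Itgam, its largest term, 0.195 to 0.260 and 0.318 to 0.338. The adipocyte sum was 0.185 to 0.262 and 0.300 to 0.305, and without Fabp4 0.0405 to 0.0442 and 0.0176 to 0.0295, with Lep above background on no array. The part of any of these marker shifts in the values below was not tested, and in bulk RNA more cells of a type and more RNA per cell cannot be told apart.

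With siRNA-MEG3, 3 of the subunit genes of the receptor stood higher on every array than on any siRNA-NC array. Chrng, Musk, Rapsn, Lrp4 and Agrn overlapped. The MuSK activator gene Dok7 was apart too, but was kept only for its signal above background on the siRNA-MEG3 arrays. Among the subunits the difference was 9.46-fold in Chrnd, 2.98-fold in Chrnb1 and 2.63-fold in Chrna1. For Dok7 the size is uncertain, since 2 of 3 siRNA-NC arrays were not well above background. Its log2 fold change was 2.15, or 0.92 with another background correction. That correction added 50 to every spot, which by itself shrinks the fold change of a dim probe. None of these genes passed limma's test after Benjamini-Hochberg adjustment over 22056 genes at 2 samples per group. Of the 9 measured members 0 were called in either direction, against 1.52% of all genes, 243 higher and 92 lower. All 9 passed the filter on dim probes, 8 of them above background on all 6 arrays. Dok7 passed only through the siRNA-MEG3 group, where it was high. This favours a difference in that direction, so Dok7 is left out of the next counts. Of the other 8 members, 3 were higher and 0 lower at an unadjusted limma p under 0.05, while 12.2% of all genes were higher at that level. Unlike these 8 members, all genes include those that passed the filter through 1 group only. The arrays were apart and higher for the same 3 members (Chrna1, Chrnb1 and Chrnd), as for 29.3% of all genes, and apart and lower for 0, as for 17.9%. The median log2 fold change was 0.43 over these 8, 0.56 with Dok7, and 0.06 over all genes.

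**Figure D1:**
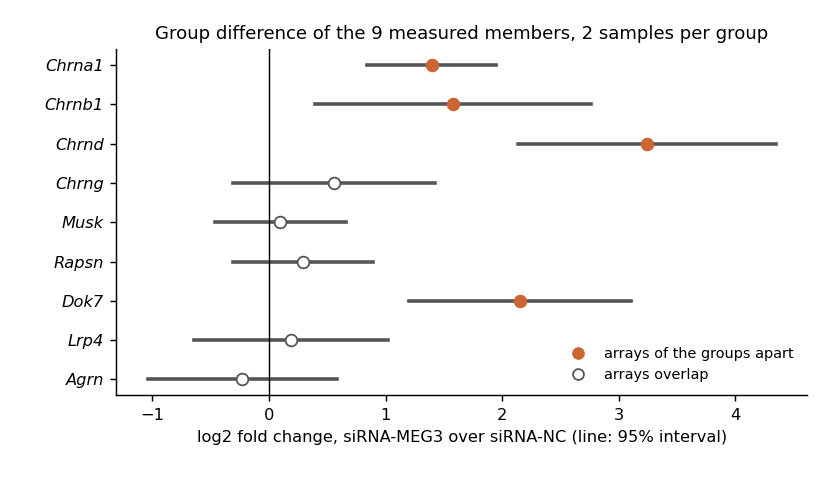
The log2 fold change of each measured gene (x axis, siRNA-MEG3 over siRNA-NC, 2 samples per group) is drawn with its 95% interval from limma, filled where the arrays of the groups did not overlap. The intervals of Chrnd (2.14 to 4.35), Dok7, Chrna1 and Chrnb1 lie above 0, and those of the other 5 genes span it, although none of the 9 passed after adjustment over all genes. Dok7 passed the filter on dim probes only through the siRNA-MEG3 group, where it was high.

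The constant subunits came first. Levels below are log2 processed signals (spot intensities with background removed by the scanner software) relative to the 75th percentile of the same array, and are compared between arrays for 1 probe at a time. Chrna1, the α subunit that carries the main part of the acetylcholine binding site and is present in both receptor forms, read 3.52, 3.68 and 3.73 with siRNA-NC (arrays 1 to 3, the order used throughout) and 5.11, 5.01 and 5.07 with siRNA-MEG3. The groups did not overlap, and the arrays within a group lay close together. The mean log2 difference was 1.40 ± 0.20 (SE, n = 2 samples per group; 95% interval 0.84 to 1.95; limma adjusted p = 0.0709). The second Chrna1 probe read 0.89, 0.49 and 0.82 with siRNA-NC and 1.93 and 1.91 on siRNA-MEG3 arrays 1 and 3, so that both probes were higher with siRNA-MEG3. On siRNA-MEG3 array 2 its spot was marked as an outlier and left out (1.65 with all spots kept), which kept this probe out of the fit.

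Chrnb1, the β subunit through which rapsyn is linked to the receptor, read -3.69, -2.50 and -3.59 with siRNA-NC against -1.49, -1.48 and -1.53 with siRNA-MEG3. siRNA-NC array 2 stood about midway between the other siRNA-NC arrays and the siRNA-MEG3 arrays, and the groups did not overlap. This gave a log2 fold change of 1.58 ± 0.44 (SE, n = 2; 95% interval 0.39 to 2.76; limma adjusted p = 0.180). Without siRNA-NC array 2 it was 2.15, with 1 siRNA-NC sample left.

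Chrnd, the δ subunit, which forms a binding site together with an α subunit, read -1.53, -2.55 and -1.51 with siRNA-NC against 1.28, 1.15 and 1.25 with siRNA-MEG3. Here siRNA-NC array 2 was the lowest, on the far side from siRNA-MEG3, unlike in Chrnb1. The log2 fold change was 3.24 ± 0.41 (SE, n = 2; 95% interval 2.14 to 4.35; limma adjusted p = 0.0569), and 2.73 without siRNA-NC array 2. Chrnd passed the threshold in 6 of the 19 other ways of processing the arrays, over which its adjusted p ranged from 2.88e-08 to 0.544. Of these 6, 5 counted arrays differently or left a single sample in a group. The other was the normexp correction, with 18 spots under a bright speck on siRNA-MEG3 array 2 left out (3.09, limma adjusted p = 0.0198). Normexp models a spot as signal plus background noise. Here 50 was then added to every spot, which by itself shrinks the fold changes of dim probes.

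The fetal and adult subunits were compared next. Chrng, the γ subunit of the fetal receptor, read -4.89, -5.01 and -4.69 with siRNA-NC against -4.68, -3.99 and -4.69 with siRNA-MEG3. siRNA-MEG3 array 2 stood apart from the others, while siRNA-MEG3 arrays 1 and 3 were level with siRNA-NC array 3. The probe was dim, though well above background on all 6 arrays. Its processed signals were 43.2, 70.5 and 47.4 with siRNA-NC against 46.8, 79.7 and 45.1 with siRNA-MEG3. For Chrng the log2 fold change was 0.56 ± 0.32 (SE, n = 2; 95% interval -0.31 to 1.42; limma adjusted p = 0.434), and 0.21 without siRNA-MEG3 array 2. With normexp it was 1.68 on all spots and 0.55 with the speck spots left out. In these fits the median of all genes was 0.57 and 0.18. Chrne, the ε subunit of the adult receptor, was not well above background on any of the 6 arrays. Its processed signals, not scaled between arrays, were 4.84, 5.31 and 4.49 with siRNA-NC against 24.5, 4.44 and 28.4 with siRNA-MEG3. The higher readings were those of siRNA-MEG3 arrays 1 and 3, which count as 1 sample, and siRNA-MEG3 array 2 read as low as siRNA-NC. Chrng was therefore measured in both groups and Chrne in neither, and no difference between fetal and adult subunits could be calculated.

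**Figure D2:**
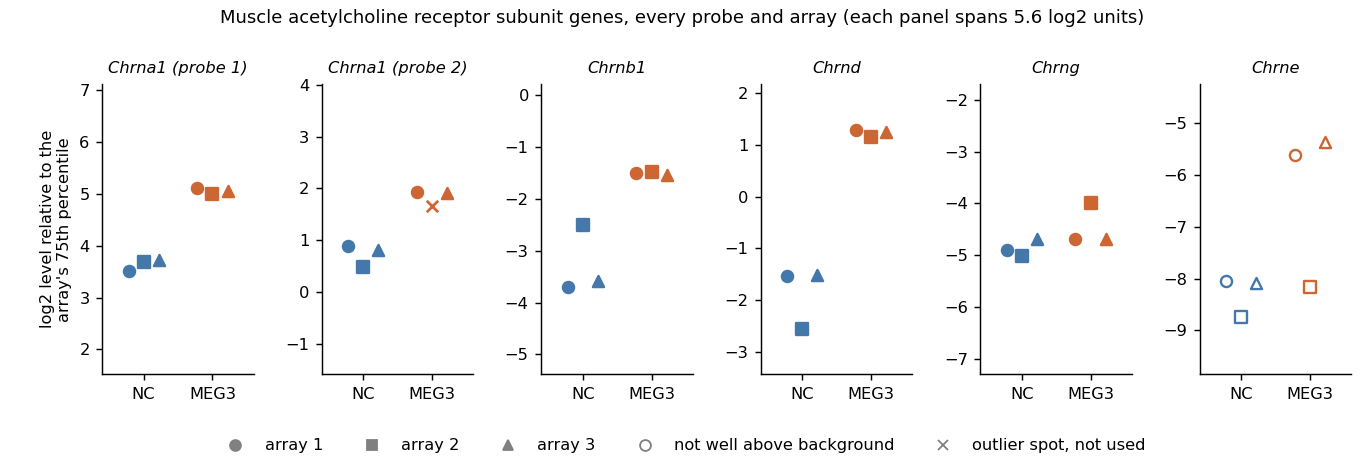
Each panel shows 1 probe of a receptor subunit gene, with the log2 level relative to the array's 75th percentile on the y axis and the 3 arrays of each group as separate symbols; open symbols were not well above background and the cross is an outlier spot. Chrna1, Chrnb1 and Chrnd are separated between the groups, Chrng overlaps, and Chrne is open on all 6 arrays.

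Whether the subunits differed by unequal amounts was asked of Chrnd, which had the largest fold change, against the other measured subunits; these 3 pairs were chosen after the values were seen. The log2 fold change of Chrnd exceeded that of Chrna1 by 1.85 ± 0.54 (SE, n = 2 samples per group). It exceeded that of Chrnb1 by 1.67 ± 1.09 and that of Chrng by 2.68 ± 0.57. With 2 samples per group the exact permutation test over samples (2-sided) can go no lower than p = 0.333, the value it gave for each pair before and after adjustment over the 3 pairs. It therefore says nothing on whether the subunit genes differed by unequal amounts, and these differences are a description.

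The agrin-MuSK pathway is given from ligand to effector. Agrn, the gene of agrin, which muscle also makes in a form of low clustering activity, read 2.19, 1.52 and 1.96 with siRNA-NC against 1.42, 1.74 and 1.37 with siRNA-MEG3 on its brighter probe. The groups overlapped, and the log2 fold change was -0.23 ± 0.30 (SE, n = 2; 95% interval -1.04 to 0.58; limma adjusted p = 0.748). It was the only measured member with a negative value. The other Agrn probe was dim, well above background on siRNA-NC array 2 and on siRNA-MEG3 arrays 1 and 3 only, with processed signals of 12.6, 32.2 and 8.30 against 34.2, 3.24 and 27.9. It did not pass the filter and was not tested.

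Lrp4, the agrin receptor, read -0.02, -0.84 and -0.40 with siRNA-NC against -0.43, -0.20 and -0.50 with siRNA-MEG3. These ranges overlapped, and the log2 fold change was 0.19 ± 0.31 (SE, n = 2; 95% interval -0.64 to 1.03; limma adjusted p = 0.801). Its spot lay in a dark patch of siRNA-MEG3 arrays 1 and 3, the only member spot to do so; such patches took up 6.84, 0 and 7.96% of spots on siRNA-MEG3 arrays 1 to 3. Musk, the receptor tyrosine kinase at the centre of the pathway, read -1.36, -1.50 and -1.54 with siRNA-NC against -1.31, -1.45 and -1.30 with siRNA-MEG3. All 6 arrays lay close together, with a log2 fold change of 0.10 ± 0.21 (SE, n = 2; 95% interval -0.46 to 0.66; limma adjusted p = 0.852). The upper bound for Musk lay below the lower bounds of Chrna1 and Chrnd, a comparison of intervals and not a test of the differences.

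Dok7, the adaptor that activates MuSK from inside the cell, read -7.21, -7.34 and -5.83 with siRNA-NC against -4.67, -4.88 and -4.68 with siRNA-MEG3. It was dim: processed signals were 8.66, 14.0 and 21.5 against 47.0, 43.2 and 45.7, and only siRNA-NC array 3 was well above background in the control group. The probe passed the filter on dim probes only through the siRNA-MEG3 group, which favours a difference in that direction. The log2 fold change was 2.15 ± 0.35 (SE, n = 2; 95% interval 1.20 to 3.11; limma adjusted p = 0.0883), and its size is uncertain because the siRNA-NC level is near background. With normexp and the speck spots left out, where 50 was added to every spot, it was 0.92 (limma adjusted p = 0.247). Over the 19 other ways of processing it passed in 5, with adjusted p from 4.19e-04 to 0.544. Without siRNA-NC array 3 it stood at 2.50 (limma adjusted p = 0.0327), with the group's remaining arrays not well above background.

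Rapsn, the gene of rapsyn, the scaffold under the receptor clusters, read 4.88, 4.76 and 4.13 with siRNA-NC against 4.99, 4.88 and 4.97 with siRNA-MEG3. siRNA-NC array 3 was the low one, and siRNA-NC array 1 was level with siRNA-MEG3 array 2. Rapsn had a log2 fold change of 0.29 ± 0.22 (SE, n = 2; 95% interval -0.31 to 0.90; limma adjusted p = 0.551), turning to -0.06 with normexp on all spots and 0.11 without siRNA-NC array 3.

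**Figure D3:**
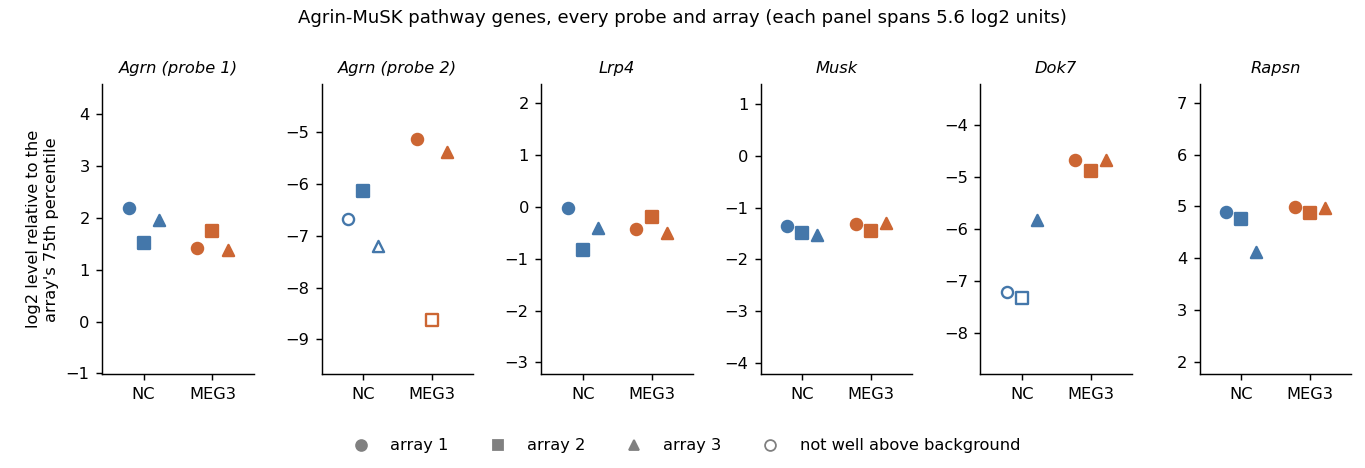
Each panel shows 1 probe of an agrin-MuSK pathway gene on all 6 arrays, with the log2 level relative to the array's 75th percentile on the y axis and open symbols where a spot was not well above background. Dok7 is separated between the groups with 2 of 3 siRNA-NC arrays open, while the brighter Agrn probe, Lrp4, Musk and Rapsn overlap.

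The direction of the members was compared across the 19 other ways of processing the arrays. Chrna1 (1.00 to 1.50), Chrnb1 (1.38 to 2.15), Chrnd (2.73 to 3.30), Chrng (0.21 to 1.68), Musk (0.02 to 0.49) and Dok7 (0.92 to 2.50) were positive in all 19. Agrn was negative in all 19 (-0.50 to -0.07). Rapsn and Lrp4 were positive in 18 and negative in 1 each. The median of all genes ran from -0.04 to 0.57 over the 19, so a small positive value need not lie above it. With normexp on all spots, where that median was 0.57, Musk stood at 0.49 and so below it. Chrna1 and Chrnb1 passed the threshold in 4 of the 19, and Chrng, Musk, Rapsn, Lrp4 and Agrn in 0. Counting the 6 arrays as 6 separate samples, as the labels present them, called 4 members higher (Chrna1, Chrnb1, Chrnd and Dok7); that fit also called 3766 genes higher and 2169 lower over the whole array.

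**Figure D4:**
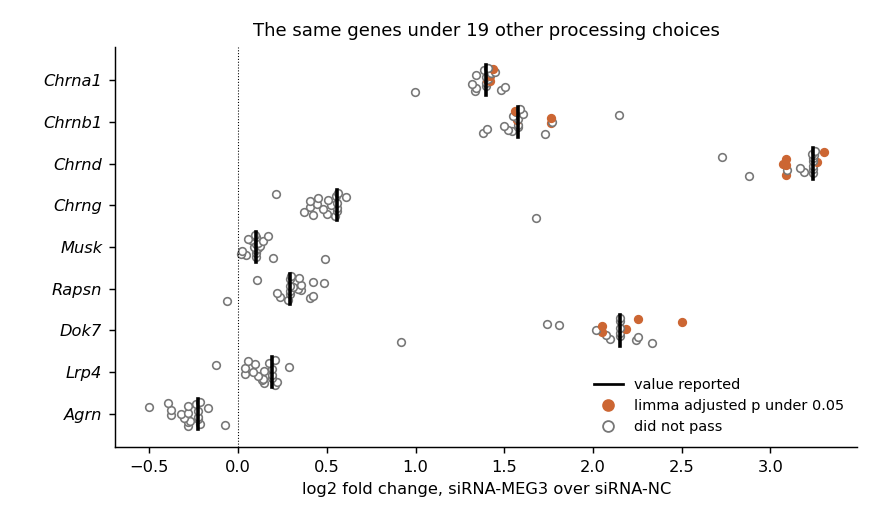
The log2 fold change of each measured gene (x axis) is shown under the 19 other processing choices as points, filled where limma's adjusted p was under 0.05, with the reported value as a bar. Chrnd holds 6 filled points between 3.07 and 3.30 and Dok7 5 between 2.05 and 2.50, whereas Chrng, Musk, Rapsn, Lrp4 and Agrn hold none.

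Genes of the wider synapse were taken from 3 lists. In the list of synaptic scaffold, matrix and signalling genes, 36 of 39 were measured and 0 were called; 26 fold changes were positive and 10 negative, with a median of 0.24 against 0.06 over all genes. At an unadjusted limma p under 0.05 there were 7 of the 36, and 19.5% of all genes were at that level in either direction. By the smallest p, the first was Colq, the collagen tail that anchors acetylcholinesterase in the synaptic matrix, at a log2 fold change of 1.44 ± 0.27 (SE, n = 2; limma adjusted p = 0.109). Ache, the gene of that esterase, was next at -1.45 ± 0.34 (adjusted p = 0.147), and is counted among the 7. It stood at 1.82 with normexp on all spots and 0.13 with the speck spots left out. The median of all genes was 0.57 and 0.18 in these fits. On every siRNA-MEG3 array Ache lay too low to be well above background. It therefore passed the filter on dim probes only through siRNA-NC, where it was high, which favours a negative value. Nes, the intermediate filament nestin, stood at 1.06 ± 0.27 (adjusted p = 0.160) and Lama5, a laminin chain of the synaptic basal lamina, at 0.90 ± 0.24 (adjusted p = 0.174).

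Among regulators of synaptic and denervation-responsive genes, 10 of 12 were measured, 2 were called higher and 0 lower. Myog, the E-box factor myogenin, read -2.37, -2.08 and -2.35 with siRNA-NC against 1.26, 1.24 and 1.24 with siRNA-MEG3, and rose by 3.46 ± 0.22 (log2 ± SE, n = 2; limma adjusted p = 0.0222). Hdac9, a class IIa histone deacetylase that binds MEF2 factors, rose by 2.63 ± 0.23 (adjusted p = 0.0316). Myf5, a determination factor of myoblasts, stood at -2.87 ± 0.41 (adjusted p = 0.0701) and Myf6, a factor of maturing fibres, at 1.19 ± 0.22 (adjusted p = 0.106), neither passing. The list median was 0.15, with 6 positive and 4 negative values. Of the 11 neuronal nicotinic subunit genes, which form receptors of neurons and other tissues, 4 were measured and 0 called. Chrna2 stood at -0.44 ± 0.27 and Chrnb4 at 0.26 ± 0.24. Chrnb2 (-0.29 ± 0.32) and Chrna6 (-0.85 ± 0.95) changed sign with normexp, to 1.69 and 1.46 on all spots and 0.15 and 0.19 with the speck spots left out. Over all genes the median in those fits was 0.57 and 0.18. On siRNA-MEG3 arrays 1 and 3 Chrnb2 and Chrna6 lay too low to be well above background. They therefore passed the filter on dim probes only through siRNA-NC.

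**Figure D5:**
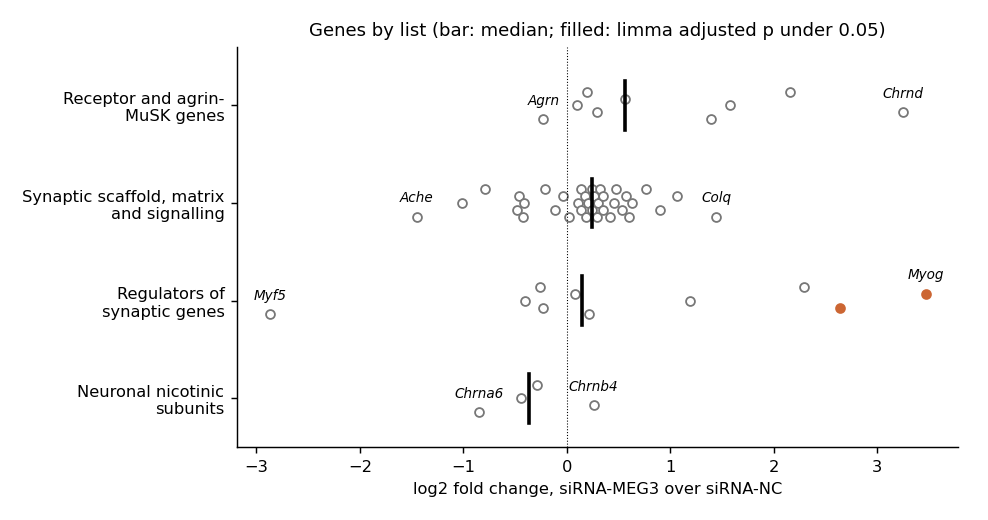
Each point is a measured gene, placed by its log2 fold change (x axis, siRNA-MEG3 over siRNA-NC) within its list, with the list median as a bar and genes past limma's adjusted threshold filled. The filled points are Myog and Hdac9 among the regulators. The medians run from -0.36 in the neuronal subunits to 0.56 in the receptor and agrin-MuSK genes. Without Dok7 the latter was 0.43, and the former rests on 4 genes. Of these, Chrnb2 and Chrna6 change sign with normexp, which also moves the median of all genes.

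The profile of Chrna1 over the 6 arrays, centred on its mean, was compared with that of every tested gene by root mean square difference in log2 units. The nearest named genes were Vipr2 (0.022), Tyms (0.038), Mfsd13a (0.045), Ankrd1 (0.062) and Oit3 (0.063), with log2 fold changes from 1.32 to 1.47 and none past the threshold. Vipr2 encodes a receptor for vasoactive intestinal peptide, Tyms thymidylate synthase and Ankrd1 a muscle ankyrin repeat protein. Among the members Chrnb1 was nearest (0.403), then Dok7 (0.549) and Chrng (0.576). Rapsn (0.606), Musk (0.664), Lrp4 (0.755), Chrnd (0.912) and Agrn (0.940) followed. With 6 arrays in 2 groups, closeness includes a similar difference between the groups.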

How the data were processed

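C2C12 RNA was measured on 6 arrays. Per the file headers, the deposited scanner files come from Agilent Feature Extraction 11.0.1.1; they give every spot's intensity raw, as local background and as a processed signal with background removed, beside its quality marks. The authors' deposited table holds log2 values for 30732 probes (every column median 8.11; r with the log2 processed signal of its array from 0.9991 to 0.9997); the step used between arrays stays unknown. Per the labels' protocols, repeated probes were averaged by the authors and array factors rested on those reaching 30 in intensity everywhere.

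Control and outlier spots were dropped, a probe's spots averaged, and log2 processed signals centred on the array's 75th percentile. Probes well above background throughout at least 1 group were kept, the brightest of them standing for its gene. RefSeq accessions (table of GRCm38.p6) named 27234 of 39429 probes. The test was limma 3.58.1 (R 4.3.3, lmFit and eBayes, 2-sided, no covariate, 2 residual and 2.29 prior degrees of freedom). Its p-values were adjusted by Benjamini-Hochberg across all genes, at a threshold of 0.05; the script was tested on simulated data. A second fit over 26345 probes gave the members the same fold changes and also called none. The number of arrays limits the precision. Deviations of same-numbered arrays correlated at -0.04 to -0.03, and those of the other pairs at -0.04 to 0.05. With arrays 1 and 3 of each group near-identical, these are hardly separate values. They do not settle whether the replicate numbers pair the arrays.

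Named were all members with every probe, the genes of each list with the smallest p (up to 4), and the 5 profiles nearest Chrna1. The members and lists were chosen with earlier results of these data known. Counting arrays, background correction, scaling, filter, outlier spots, choice of probe, replicate block and leaving out each array were varied. The planned difference of Chrng and Chrne had no value, since Chrne was not well above background.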

Additional observations from a re-analysis of the deposited data

How the results depend on the processing

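In the 4-sample limma fit 0 members were called higher and 0 lower. At an unadjusted p under 0.05 there were 4 of 9, Dok7 included, against 19.5% of all genes. No alternative called a member lower. Quantile normalization, the labels' factor, the authors' log2 table, no filter, outlier spots kept, the mean of kept probes and normexp on all spots also called 0. Normexp with the speck spots left out called 1 member, beside 175 genes higher and 100 lower of 22054. With 5 samples, only the repeat scan averaged, 2 members were called, beside 1207 genes higher and 830 lower of 22024. With 6 samples 4 were called, beside 3766 genes higher and 2169 lower of 21945. In the fits with 5 and 6 samples, near-identical arrays shrink the spread by construction. The fit with the siRNA-MEG3 arrays as 1 sample also called members, with no spread within that group. Leaving out each array gave 0 to 4 members; the 4 came without siRNA-MEG3 array 2, where 1 siRNA-MEG3 sample remains and is assumed to vary like siRNA-NC, and 1 (Dok7) came without siRNA-NC array 3. The replicate number as a block called 0 members with 4 samples and 4 with 6; the labels share only the number. Over all genes, 243 higher and 92 lower became 0 and 0 with normexp on all spots (1022 at an unadjusted p under 0.05), with no filter (4431) and without siRNA-NC array 2 (6927). They became 138 and 28 with the replicate block of 4 samples, 1984 and 1213 with the block of 6, 1207 and 830 with 5 samples, 538 and 702 with siRNA-MEG3 reduced to 1 sample, and 1349 and 1608 without siRNA-MEG3 array 2. The labels' factor gave 57 lower and leaving out siRNA-NC array 1 gave 39 lower. Leaving out siRNA-NC array 3 gave 212 higher and 72 lower of 22380. Normexp moved the median of all genes to 0.57 on all spots and to 0.18 with the speck spots left out; relative to it, Rapsn (-0.0624 on all spots) lay further below. Chrnb2 (1.69 and 0.148), Chrna6 (1.46 and 0.192) and Ache (1.82 and 0.134) changed sign in these fits, and the cause was not tested. With the speck spots left out, Chrnb2 and Ache lay below the median of all genes. Lrp4 ran from -0.124 to 0.285 when each array was left out. Signal over background limits Dok7 and Chrne most.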
